A study of Mus musculus with 6 samples.

Results

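The components of bone morphogenetic protein (BMP) signalling and the Id transcriptional regulators were described in mouse neural stem cells with and without a reporter signal of Spot14, the product of the thyroid hormone responsive gene Thrsp. The 10 genes were a ligand (Bmp4), 3 receptors (Bmpr1a, Bmpr1b and Bmpr2), a pair of feedback Smads (Smad6 and Smad7) and 4 Id factors (Id1, Id2, Id3 and Id4). They were chosen by name, and every probe set annotated to exactly 1 of them was used, which gave 24 of the 34945 probe sets that name 1 gene and 10 of 18193 genes on the array. The series holds 6 arrays of total RNA, 3 of Spot14 GFP positive and 3 of Spot14 GFP negative neural stem cells, where GFP is green fluorescent protein. The labels call the 3 arrays of a group biological replicates and name no animal, culture, age or strain, so p-values measure the spread between these samples. How the reporter was built, how the cells were grown and how positive and negative cells were separated are not given in the sources used here.

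BMP ligands are secreted proteins that bring together type I and type II receptor kinases on the receiving cell. The activated type I receptor phosphorylates Smad1, Smad5 and Smad9, which enter the nucleus with Smad4 and switch on target genes, among them the Id genes and the inhibitory Smad6 and Smad7, which feed back on the receptors. Id proteins lack a DNA-binding region and hold back basic helix-loop-helix (bHLH) factors by pairing with their E protein partners; in the adult brain, BMP signalling and Id proteins are known for keeping neural stem cells undifferentiated and for favouring quiescence and astrocyte fate over neurogenesis.

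Values are GCRMA signals on a log2 scale, on which 1 unit is a 2-fold difference and a reading below about 4 lies near background. The median of an array was 3.55 to 3.66. A pair of GFP negative arrays stood apart. GFP negative replicate 3 had a low weight in limma (0.152). GFP positive replicate 2 had a high one (8.35), and the remaining arrays had 0.762 to 1.22. GFP negative replicate 2 stood apart by its control transcripts, as given with the Id1 and Id3 values. Markers of the labelled cell type were present, and so were those of astrocytes: 10 of 11 stem cell and radial glia markers and 9 of 10 astrocyte markers on the array passed the filter of log2 4 or more on at least 3 of 6 arrays, and Sox2 averaged 12.40 ± 0.22 in GFP positive and 11.83 ± 0.39 in GFP negative cells (SD, n = 3 each). Endothelial cells are another strong source of Id and inhibitory Smad transcripts, and 1 of 11 endothelial markers passed the filter (Flt1, 4.17 and 4.09), while the summed linear signal of the list was 67.0 to 69.1 on GFP positive and 61.3 to 78.2 on GFP negative arrays. The other markers on that list, Pecam1, Cdh5 and Cldn5 among them, lay near background. Thrsp itself measured 14.32, 14.20 and 14.13 in GFP positive cells, against 13.58, 13.41 and 13.71 in GFP negative cells. Every GFP positive array was higher, and the Thrsp difference was 0.65, short of the threshold (limma adjusted p = 0.0893).

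None of the 10 genes passed the test when each gene was read from its brightest probe set. With limma and Benjamini-Hochberg adjustment over all 10531 genes tested, 0 of 8 tested members were higher and 0 lower at an adjusted p under 0.05, where 2.35% of all tested genes were higher and 2.11% lower. Before adjustment, with p under 0.05 in limma, 2 members were higher (Id2 and Id4) and 0 lower, against 9.92% and 8.28% of all genes. The groups did not overlap for 3 members, Id2, Id4 and Bmpr1a, each higher in GFP positive cells, against 13.8% of all genes. Of the 8 tested members 7 had a positive difference, GFP positive minus GFP negative, against 50.5% of all genes. Bmp4 and Smad6 stayed below the filter and were not tested. When all 18742 probe sets above the filter were fitted instead, 1 of the 19 tested probe sets of the members passed, the Id2 probe set 1453596_at, where 1.3% of all probe sets were higher and 1.07% lower. The groups did not overlap at 7 of the 19, all higher in GFP positive cells, against 12.6% of all probe sets, and 17 of the 19 had a positive difference, against 50.7%. Probe sets of 1 gene share its transcripts and are not independent.

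**Figure D1:**
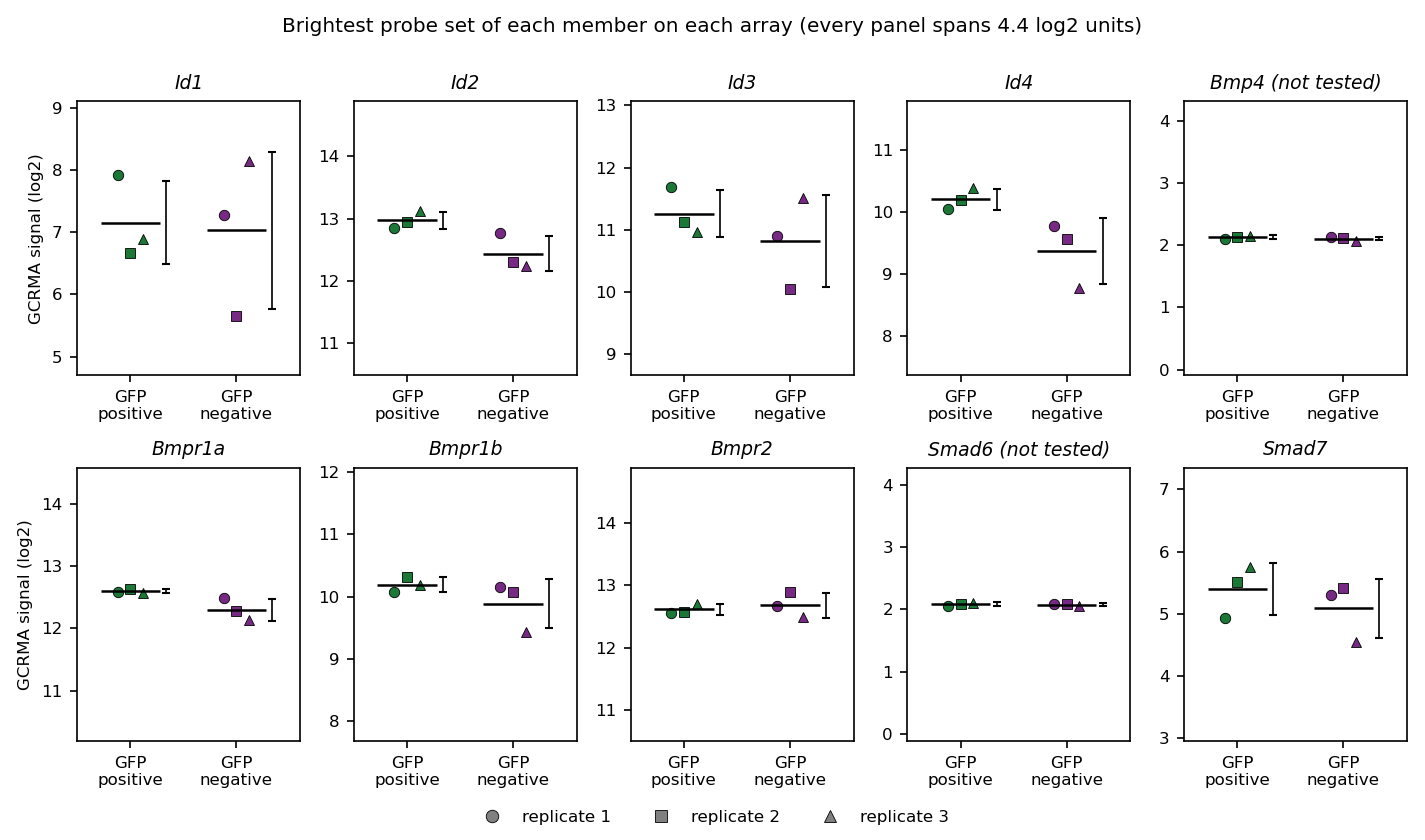
Log2 signal of the brightest probe set of each of the 10 genes on each array, GFP positive left and GFP negative right; symbols mark the replicate, horizontal lines the means, and error bars beside them 1 SD (n = 3). Id2, Id4 and Bmpr1a separate the groups, Id1 and Id3 spread widely within GFP negative cells, and Bmp4 and Smad6 lie flat near log2 2.

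None of the 4 Id factors passed the test. All 4 differences were positive, with a median of 0.48 on the log2 scale, beside a median of 0.00 over all genes tested. That median was 0.26 without GFP negative replicate 2, and 0.22 with the 3′ excess of control transcripts, described with Id1 and Id3, as a covariate. Id2 and Id4 separated the groups, while Id1 and Id3 did not.

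The upstream sequences of the Id genes are shown because Id genes are direct targets of BMP Smads, which bind GC-rich elements. RefSeq promoter sequences of mouse assembly GRCm38.p6 were matched for 8 of the 10 genes by symbol, and the 250 bases before the annotated start are printed for Id2 (chr12:25096093-25096342, minus strand), Id3 (chr4:136143572-136143821, plus strand) and Id4 (chr13:48260866-48261115, plus strand), read 5′ to 3′ on the strand of the gene. Capitals mark GGCGCC, the GC-rich element.
Id2: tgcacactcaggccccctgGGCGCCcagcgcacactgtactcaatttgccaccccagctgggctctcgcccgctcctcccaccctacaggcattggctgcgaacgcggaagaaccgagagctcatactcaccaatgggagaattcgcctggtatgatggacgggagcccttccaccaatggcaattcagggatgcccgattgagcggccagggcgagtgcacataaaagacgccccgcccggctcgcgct
Id3: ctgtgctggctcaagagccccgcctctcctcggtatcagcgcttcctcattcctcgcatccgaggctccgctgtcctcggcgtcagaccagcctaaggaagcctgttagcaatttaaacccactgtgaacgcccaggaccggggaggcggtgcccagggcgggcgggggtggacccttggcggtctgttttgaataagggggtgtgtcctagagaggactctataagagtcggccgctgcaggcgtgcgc
Id4: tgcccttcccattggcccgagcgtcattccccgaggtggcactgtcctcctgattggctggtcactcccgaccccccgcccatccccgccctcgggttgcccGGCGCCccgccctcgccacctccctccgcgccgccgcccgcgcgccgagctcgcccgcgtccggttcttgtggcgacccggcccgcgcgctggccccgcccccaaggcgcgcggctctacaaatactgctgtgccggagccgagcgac
GGCGCC, which reads the same on both strands, was found once in Id2 and once in Id4, starting 231 and 148 bases before the start, and not in this window of Id3. It also stood in the windows of Bmpr1a and Bmpr2, so that 4 of 8 members held it, against 9.59% of 32851 promoters. A member counts if any of its windows holds the letters, and Bmpr1b had more than 1 window, while the percentage counts single promoters. The other letters searched on both strands were GTCTAGAC, found in 0 of 8 members and 0.167% of promoters, CAGACA, found in 1 member (Bmpr1b) and 17.1% of promoters, and the E-box CANNTG bound by bHLH factors, found in 3 members (Bmp4, Bmpr1b and Id2) and 66.2% of promoters. Matches of different motifs overlapped 0 times in the members, and a match is a description of the letters only.

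Id4, an Id family member prominent in neural stem cells and astrocytes, measured 10.04, 10.18 and 10.38 in GFP positive cells, against 9.77, 9.57 and 8.77 in GFP negative cells. Every GFP positive array lay above every GFP negative array, and GFP negative replicate 3 was the lowest. Id4 thus averaged 10.20 ± 0.17 in GFP positive and 9.37 ± 0.53 in GFP negative cells (SD, n = 3 each). The gap of 0.83 (SE 0.28, 95% interval 0.17 to 1.50), or 1.78-fold, missed the threshold after adjustment (limma adjusted p = 0.167). Without GFP negative replicate 3 the difference was 0.54 (limma adjusted p = 0.0929). A further Id4 probe set, 1423259_at, read 9.16, 8.84 and 9.04 in GFP positive cells, against 8.68, 8.61 and 7.77 in GFP negative cells, again without overlap (difference 0.66, limma adjusted p = 0.310 among all probe sets). The remaining one, 1423260_at, was flat at 5.86 ± 0.01 in GFP positive and 5.85 ± 0.01 in GFP negative cells and did not follow the others.

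Id2, which pairs with E proteins and is widely expressed in glial and neural progenitors, had 3 probe sets, and all of them separated the groups in the same direction. The brightest, 1435176_a_at, measured 12.85, 12.94 and 13.12 in GFP positive cells, against 12.76, 12.31 and 12.25 in GFP negative cells. It averaged 12.97 ± 0.14 in GFP positive and 12.44 ± 0.28 in GFP negative cells (SD, n = 3 each), 0.53 higher (SE 0.20, 95% interval 0.05 to 1.01), or 1.44-fold, and missed the threshold (limma adjusted p = 0.222). The probe set 1422537_a_at read 10.92, 10.39 and 10.48 in GFP positive cells, against 10.37, 8.79 and 10.02 in GFP negative cells. GFP negative replicate 1 lay just under the lowest GFP positive array there, and GFP negative replicate 2 was far below the rest (difference 0.87, limma adjusted p = 0.368 among all probe sets).

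The third Id2 probe set, 1453596_at, differed the most of the 24. It measured 6.58, 6.17 and 6.97 in GFP positive cells, against 4.99, 3.40 and 3.72 in GFP negative cells. GFP negative replicates 2 and 3 lay below log2 4, near background, so the size of the fold depends on the background correction. It averaged 6.58 ± 0.40 in GFP positive and 4.04 ± 0.84 in GFP negative cells (SD, n = 3 each). The gap of 2.54 (SE 0.43, 95% interval 1.52 to 3.56), or 5.81-fold, passed among all 18742 probe sets (limma adjusted p = 0.0380). The call was lost in 4 of the 6 fits with 1 array left out: without GFP positive replicate 1 (2.54, limma adjusted p = 0.163), GFP positive replicate 2 (2.74, 0.107), GFP positive replicate 3 (2.34, 0.162) or GFP negative replicate 2 (2.22, 0.109). In those 4 fits at most 11 of all 18742 probe sets passed in limma. Without GFP negative replicate 3 it passed (2.38, limma adjusted p = 0.0458). It was also lost with no filter on low values (limma adjusted p = 0.114) and when the 3′ excess of the controls described below entered as a covariate (2.02, limma adjusted p = 0.129). Its difference was larger by 2.01 than that of the brightest Id2 probe set on the same arrays, a contrast chosen after its values were seen and not tested. The platform annotation gives the 3 Id2 probe sets different source sequences; which Id2 transcripts each one reads was not tested.

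**Figure D2:**
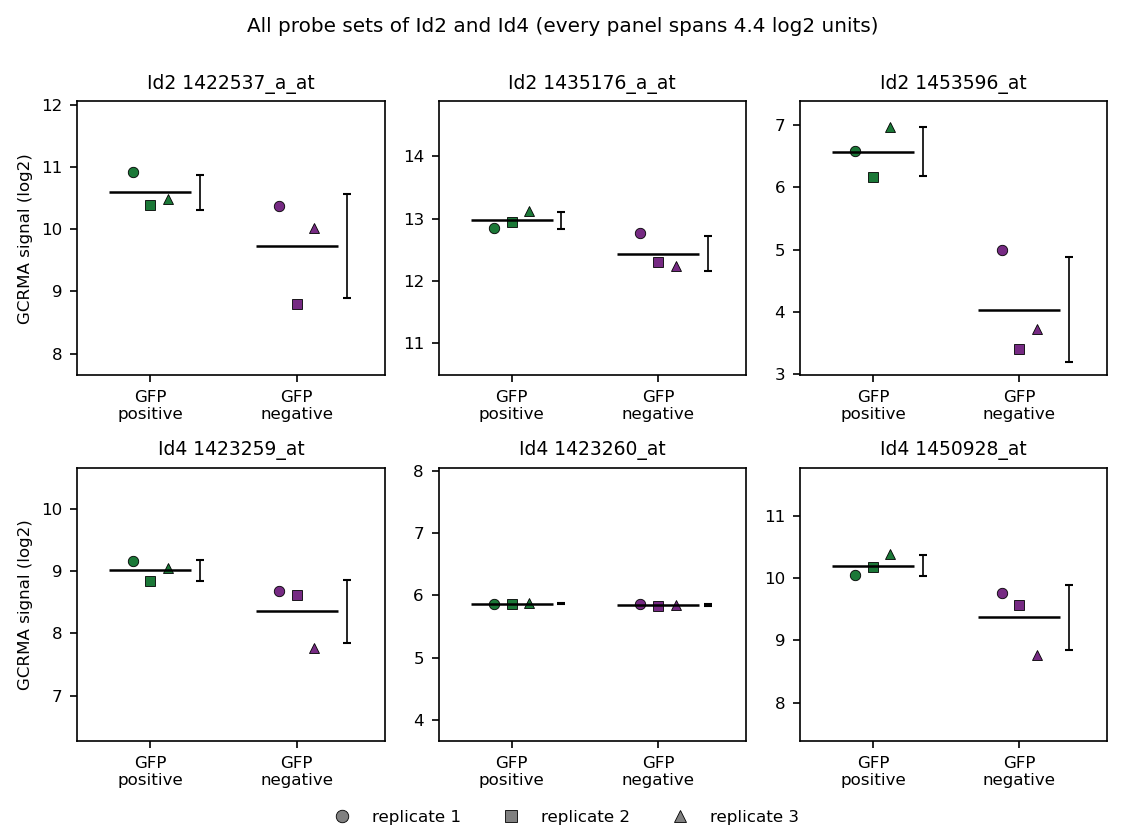
Log2 signal of the 3 probe sets of Id2 (top) and the 3 of Id4 (bottom) on each array, GFP positive left and GFP negative right, with means as lines and 1 SD as error bars (n = 3). All 3 Id2 panels separate the groups, most widely at 1453596_at (6.58 against 4.04), and Id4 1423260_at is flat at 5.86 against 5.85.

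Id1 and Id3, the Id genes that respond most readily to BMP in many cell types, did not separate the groups. Id3 measured 11.69, 11.12 and 10.97 in GFP positive cells, against 10.89, 10.05 and 11.52 in GFP negative cells. GFP negative replicate 3 lay within the range of the GFP positive arrays, and GFP negative replicate 2 was the lowest. The difference of 0.44 (SE 0.39, 95% interval −0.47 to 1.34) did not pass (limma adjusted p = 0.638).

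Id1 measured 7.91, 6.66 and 6.88 in GFP positive cells, against 7.27, 5.65 and 8.15 in GFP negative cells. Its highest and its lowest value both came from GFP negative arrays, replicates 3 and 2. The difference of 0.13 (SE 0.63, limma adjusted p = 0.95) had a 95% interval of −1.35 to 1.60, or 2.54-fold lower to 3.03-fold higher, so a sizeable difference in either direction was not detectable here. The sign of the Id1 difference turned without GFP positive replicate 1 (−0.25) and without GFP negative replicate 2 (−0.56). Without GFP negative replicate 2 the Id3 difference was 0.05, and without GFP negative replicate 3 it was 0.79 (limma adjusted p = 0.161).

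GFP negative replicate 2, lowest for Id1 and Id3, also stood out in the control probe sets that read both ends of 1 transcript. Its 3′ probe set was brighter than its 5′ one by 2.33 for Gapdh and 2.65 for beta-actin; elsewhere this excess was 1.14 to 1.65 for Gapdh and 1.77 to 2.03 for beta-actin. With that excess as a covariate the Id1 difference was −0.62 (limma adjusted p = 0.751), that of Id3 0.03 (0.984), that of Id2 0.41 (0.585) and that of Id4 0.85 (0.404). Over the 19 tested probe sets of the members, 8 had their lowest value on GFP negative replicate 2 and 10 on GFP negative replicate 3. The first 8 include Id1, Id3, 2 of 3 Id2 probe sets and Smad7 1423389_at; the other 10 include Id4 1450928_at and 1423259_at and all 4 tested Bmpr1a probe sets.

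**Figure D3:**
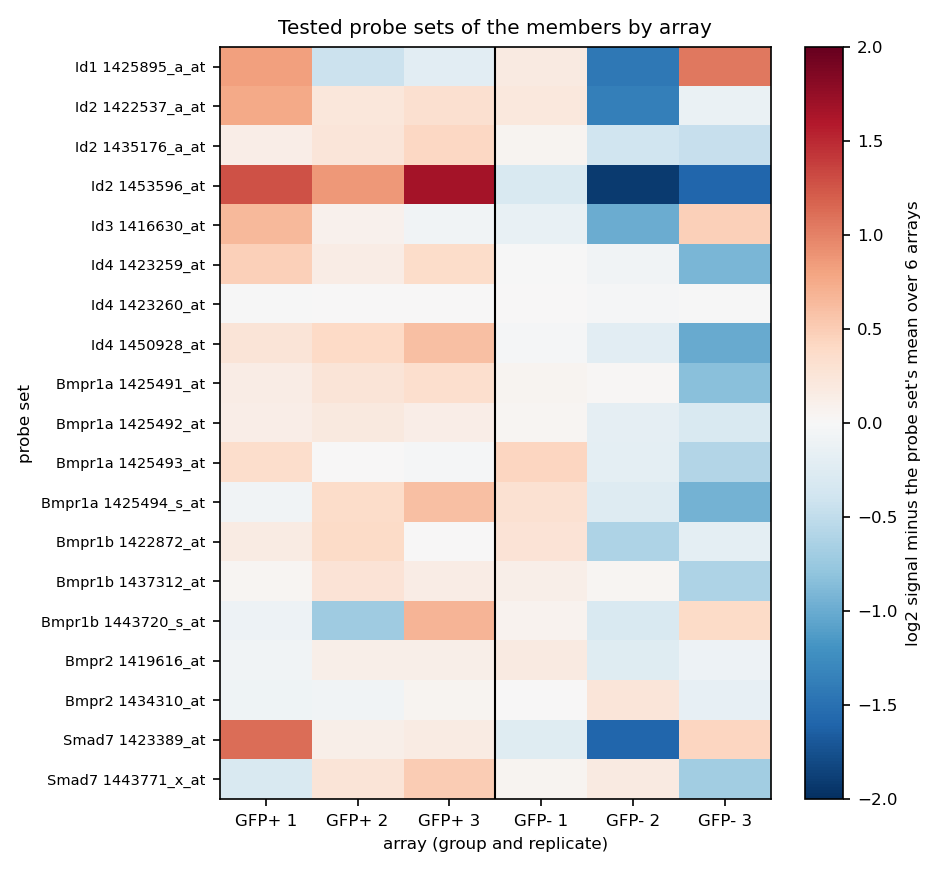
Log2 signal of the 19 tested probe sets of the members minus each probe set's mean over 6 arrays (colour), by array in columns, GFP positive left of the line and GFP negative right. Blue cells gather on GFP negative replicate 2 for Id1, Id3 and Smad7 1423389_at and on GFP negative replicate 3 for Id4 and Bmpr1a.

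The ligand Bmp4, a BMP known to act on neural stem cells, was not detected above background. Its only probe set read 2.09, 2.14 and 2.15 in GFP positive cells, against 2.12, 2.11 and 2.07 in GFP negative cells. All 6 values lay far below the filter, so no fold is given; signal from a level below the range of the array would not have been seen.

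All 3 receptors were detected, and none passed the test. The median difference of the receptors was 0.30, and it was 0.08 without GFP negative replicate 3. Bmpr1a, the broadly expressed type I receptor, measured 12.58, 12.63 and 12.57 in GFP positive cells, against 12.48, 12.27 and 12.14 in GFP negative cells. The groups did not overlap, and the GFP positive arrays lay close together. The difference of 0.30 (SE 0.17, 95% interval −0.10 to 0.70), or 1.23-fold, did not pass (limma adjusted p = 0.433). Its other 3 tested probe sets differed by 0.23 to 0.60 in the same direction, and a pair lay below the filter.

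Bmpr1b, the type I receptor with a more restricted expression, measured 10.08, 10.32 and 10.18 in GFP positive cells, against 10.15, 10.08 and 9.43 in GFP negative cells. GFP negative replicates 1 and 2 lay among or beside the GFP positive arrays, and replicate 3 lay below. The difference of 0.31 (95% interval −0.24 to 0.86, limma adjusted p = 0.582) was 0.08 without GFP negative replicate 3. The other probe sets of Bmpr1b were dim and differed by 0.36 and −0.10.

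Bmpr2, the type II receptor dedicated to BMP-type ligands, measured 12.56, 12.57 and 12.71 in GFP positive cells, against 12.66, 12.89 and 12.49 in GFP negative cells. The GFP positive values fell within the range of the GFP negative ones. Its difference was −0.07 (SE 0.18, limma adjusted p = 0.898), with a 95% interval of −0.49 to 0.35 that spans 1.41-fold lower to 1.28-fold higher. A second probe set, 1419616_at, differed by 0.11, and the third lay below the filter at 3.94 ± 0.04 in GFP positive and 4.38 ± 0.43 in GFP negative cells (SD, n = 3 each).

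**Figure D4:**
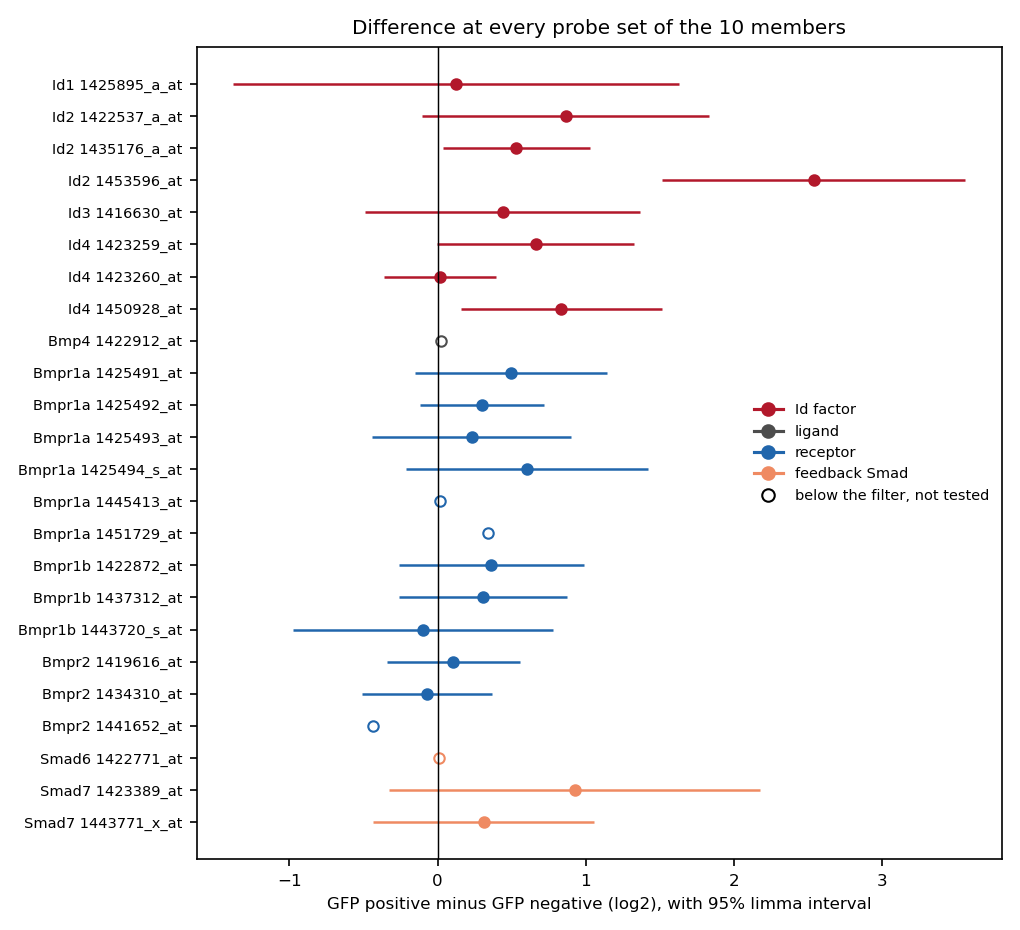
Difference in log2 signal, GFP positive minus GFP negative, at each of the 24 probe sets of the members, with the 95% limma interval from the fit of all probe sets; open points lay below the filter and were not tested. The interval of Id2 1453596_at (1.52 to 3.56) lies farthest from 0, and the intervals of all tested receptor and feedback Smad probe sets include 0.

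Of the feedback Smads, which compete with receptor Smads and recruit ubiquitin ligases to the receptors, Smad6 was not detected and Smad7 was dim. Smad6 read 2.05, 2.09 and 2.11 in GFP positive cells, against 2.09, 2.09 and 2.05 in GFP negative cells. Smad7 at its brighter probe set measured 4.94, 5.51 and 5.75 in GFP positive cells, against 5.30, 5.42 and 4.55 in GFP negative cells. The groups overlapped, and the difference of 0.31 (SE 0.31, 95% interval −0.41 to 1.04) did not pass (limma adjusted p = 0.682). With 1 array left out it ranged from 0.04 without GFP negative replicate 3, through 0.14 without GFP positive replicate 3, to 0.54 without GFP positive replicate 1. That probe set carries a suffix for cross-hybridising probes. The other, 1423389_at, measured 5.12, 4.12 and 4.16 in GFP positive cells, against 3.77, 2.42 and 4.44 in GFP negative cells, a difference of 0.93 that did not pass either (limma adjusted p = 0.465 among all probe sets). The 2 probe sets rank the arrays differently, and GFP negative replicates 1 and 2 lay near background at 1423389_at.

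The rest of the pathway was read from lists chosen by function, with 94 genes on the array, of which 58 passed the filter. By limma 0 of the 58 were higher and 0 lower after adjustment (2.35% and 2.11% of all genes), while 5 were higher and 7 lower with p under 0.05 before adjustment (9.92% and 8.28% of all genes). Positive and negative differences were equally many, at 29 each. GFP positive and GFP negative arrays did not overlap for 4 higher and 10 lower genes, against 13.8% and 11.5% of all genes tested.

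On the list of other BMP-type ligands 3 of 13 genes passed the filter, and all 3 differences were negative. Bmp2, the closest relative of Bmp4, measured 5.90, 6.02 and 6.34 in GFP positive cells, against 6.83, 6.48 and 6.45 in GFP negative cells. Every GFP positive array was lower, but the difference of −0.50 did not pass (limma adjusted p = 0.246). Bmp7 differed by −0.38. Bmp1, which is a protease that processes extracellular proteins and not a ligand, differed by −0.02.

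Among secreted antagonists and modulators 8 of 16 passed the filter, and Nog and Chrd, which trap BMP ligands, were not among them. Chrdl1, a chordin-like BMP antagonist, measured 7.90, 8.21 and 7.73 in GFP positive cells, against 8.66, 8.82 and 8.30 in GFP negative cells. All GFP positive arrays were lower (difference −0.65, 1.57-fold, limma adjusted p = 0.166). Chrdl1 differed by −2.16 at the probe set with its smallest p (4.48-fold, limma adjusted p = 0.0169 among all probe sets) and by −1.17 as the mean of its probe sets (limma adjusted p = 0.0295), so its call depends on the probe set read. Fst, the activin and BMP binder follistatin, differed by −0.73 (limma adjusted p = 0.444) and Crim1, a transmembrane BMP binder, by 0.46 (0.709).

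Of the other receptors and coreceptors 9 of 13 passed the filter. Rgma, a BMP coreceptor, measured 7.65, 7.36 and 7.53 in GFP positive cells, against 5.90, 6.37 and 7.37 in GFP negative cells. GFP negative replicate 3 alone reached the GFP positive range (difference 0.96, limma adjusted p = 0.209). Tgfbr1, a type I receptor for TGF-beta, differed by −0.70 (limma adjusted p = 0.220) and the coreceptor Tgfbr3 by −0.64 (0.505). Tgfbr3 was dim and read 3.68, near background, on GFP positive replicate 3. Among the signal-transducing Smads 5 of 6 passed the filter. Smad1 differed by −0.30, Smad2 by −0.28 and Smad5 by −0.25, with limma adjusted p from 0.509 to 0.545, and Smad9 lay near background. All 20 intracellular modulators passed the filter. Those with the largest differences were Tgif1, a corepressor of Smads (0.57, limma adjusted p = 0.442), Xiap, which links receptors to a kinase branch of the pathway (0.45, 0.259), and Fkbp1a, which guards type I receptors against leaky activity (−0.43, 0.216). The Fkbp1a probe set carries a suffix for cross-hybridising probes.

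Of the other known BMP target genes 4 of 12 passed the filter, and the Hey genes, which Notch signalling also drives, had the largest differences. Hey1 measured 11.77, 11.23 and 11.62 in GFP positive cells, against 10.91, 10.63 and 10.50 in GFP negative cells. The groups did not overlap, and the difference of 0.86 (SE 0.21, 1.82-fold) just missed the threshold (limma adjusted p = 0.0749). Hey2 measured 8.25, 8.04 and 8.28 in GFP positive cells, against 7.56, 7.32 and 5.22 in GFP negative cells. GFP negative replicate 3 was far below the rest, and the difference of 1.49 (limma adjusted p = 0.221) was 0.75 without it (limma adjusted p = 0.0361). Msx1 differed by 0.52 (limma adjusted p = 0.386), with GFP negative replicates 1 and 2 near background at 3.73 and 3.89.

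In the fit that left out GFP negative replicate 3, 2 of the 58 pathway genes were higher and 4 lower, where 7.61% of all genes were higher and 4.21% lower in that fit. Those higher were Hey2 and Rgma (1.38, limma adjusted p = 0.0121). Those lower were Chrdl1 (−0.79, 0.0463), Fst (−1.22, 0.0262), Tgfbr1 (−0.93, 0.0447) and the E protein gene Tcf12 (−0.68, 0.0392). None of the 10 members passed in that fit.

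**Figure D5:**
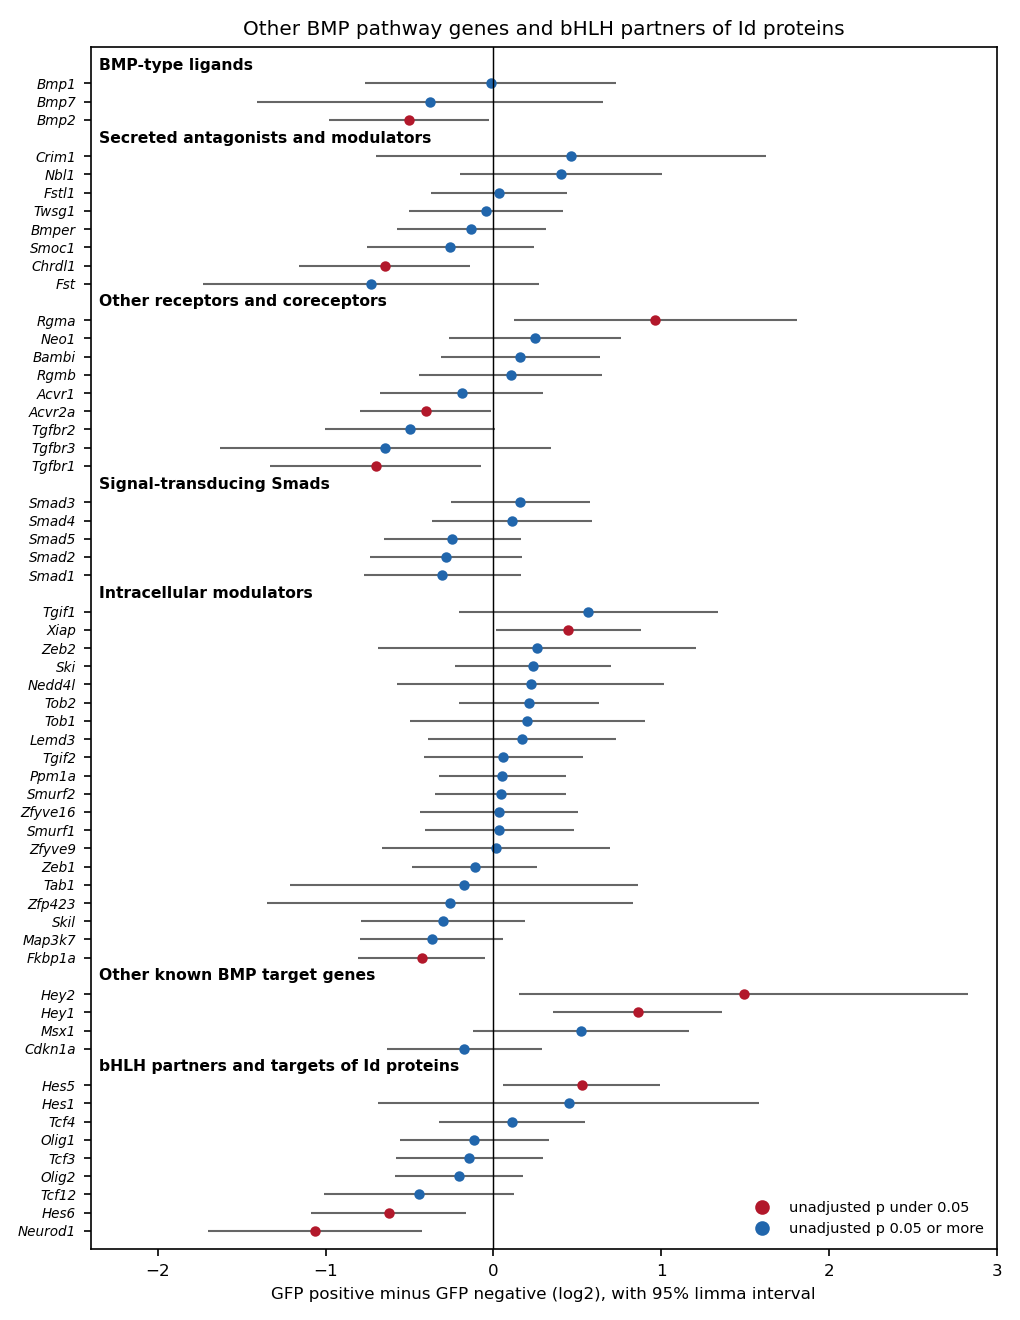
Difference in log2 signal, GFP positive minus GFP negative, of the 58 tested pathway genes by list, with 95% limma intervals; red points have an unadjusted p under 0.05. Hey2 (1.49) and Neurod1 (−1.06) lie at the extremes, and 29 genes lie on each side of 0.

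The bHLH factors that Id proteins hold in check, with the Hes repressors, had 9 of 14 genes above the filter, 3 of them with a positive difference. Neurod1, a factor of neuronal differentiation, measured 4.54, 5.40 and 4.51 in GFP positive cells, against 5.72, 5.93 and 5.99 in GFP negative cells. Every GFP positive array was lower, and the difference of −1.06 (2.09-fold) did not pass (limma adjusted p = 0.0796). Hes6, a promoter of neuronal differentiation that opposes Hes1, measured 11.84, 11.60 and 11.49 in GFP positive cells, against 12.10, 12.17 and 12.53 in GFP negative cells (difference −0.62, limma adjusted p = 0.142). That probe set carries a suffix for cross-hybridising probes, and without such probe sets the difference was −0.32 (limma adjusted p = 0.726). Hes5, a Notch target of stem cells, differed by 0.53 (limma adjusted p = 0.216) and Hes1 by 0.45 (0.709). The Hes5 probe set carries the same suffix as that of Hes6 and was dim, at 4.35 to 5.26. The E protein genes, the direct partners of Id proteins, differed by −0.44 for Tcf12 (limma adjusted p = 0.407), −0.14 for Tcf3 (0.770) and 0.11 for Tcf4 (0.827). The oligodendrocyte lineage factors Olig2 and Olig1 differed by −0.20 and −0.11. Neurog1 and Neurog2 lay near background.

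Markers of other cells and states moved with the groups beside these values. Of 10 tested stem cell and radial glia markers 8 had a positive difference, and Nr2e1 (0.86, limma adjusted p = 0.0308) and Gfap passed. All 9 tested astrocyte markers had a positive difference, against 50.5% of all genes. The groups did not overlap for 8 of them, each higher in GFP positive cells, against 13.8% of all genes. By limma 3 of the 9 passed, all higher, where 2.35% of all genes were higher and 2.11% lower. They were the filament gene Gfap, counted in both lists (1.50, limma adjusted p = 0.0188), the water channel gene Aqp4 (1.48, 0.0116) and the glutamate transporter gene Slc1a2 (1.22, 0.0163). Astrocytes also express Id2 and Id4. The summed linear signal of the list was 72056 to 84174 on GFP positive and 38266 to 50198 on GFP negative arrays. Of 2 tested pericyte and smooth muscle markers 1 fell, the smooth muscle actin gene Acta2, by 1.29 (limma adjusted p = 0.0413). Acta2 read 4.19, 3.92 and 3.76 in GFP positive cells, against 4.79, 5.68 and 5.26 in GFP negative cells, so its size depends on the background correction. Cspg4 differed by −1.31 (limma adjusted p = 0.134). The summed signal of that list was 156 to 210 on GFP positive and 246 to 594 on GFP negative arrays. Cspg4, the brightest of the list on every array, weighed most in that sum, with 8.93 on GFP negative replicate 3. The other 8 markers lay below the filter, with small positive differences, the largest 0.22 for Tagln. The part of either list in the Id values was not tested, and in bulk samples fewer cells of a type and less RNA per cell cannot be told apart.

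The genes most like each Id gene were found by the smallest root mean square difference between log2 values centred on each gene's mean, over the 6 arrays. The closest to Id4 were Arhgef10 (0.07), Lgr4 (0.07), a receptor for R-spondins, and Glul (0.08), the glutamine synthetase of astrocytes. The closest to Id2 were Sft2d2 (0.07), Tor1aip1 (0.08) and Mgst1 (0.08). Those of Id3 were Zfp938 (0.10), Pcgf1 (0.11) and Cebpzos (0.11). Those of Id1 were Trappc5 (0.19), 4930526I15Rik (0.19) and Erich3 (0.25). This distance grows with the spread of a gene, and Id1 spread most among the Id genes. Correlations with the neighbours over the arrays were 0.96 to 0.99 for Id1 and 0.97 to 0.98 for Id2. Trappc5, like Id1, was lowest on GFP negative replicate 2 (6.96) and highest on GFP negative replicate 3 (9.50). None of these 12 genes passed the test. They were chosen for values like those of Id genes that did not pass, so this is not a separate result.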

How the data were processed

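Total RNA of 3 GFP positive and 3 GFP negative samples was hybridised, labelled with biotin per the labels' protocols, to Affymetrix expression arrays with several probes for each probe set. The authors deposited log2 values; the submitters' processing notes name GCRMA, without a version, and no genome build is given in the sources used here. That method models background from probe sequence and pulls dim probe sets to a floor, so folds near background are uncertain.

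Of 45101 probe sets, 34945 named exactly 1 gene in the platform annotation, and the 10 members were matched to RefSeq by gene ID. For each of 18193 genes the probe set brightest on average across the 6 arrays was used, and 10531 genes with log2 4 or more on at least 3 of 6 arrays, whatever their group, were tested. The comparison used lmFit and eBayes of limma 3.58.1 under R 4.3.3 with group as the only term; p-values were adjusted by Benjamini-Hochberg across all tested features, with a threshold of 0.05; a second fit took all 18742 probe sets above the filter. Differences are GFP positive minus GFP negative, with 95% limma intervals. The fit was tested on simulated data. The number of arrays limits the precision.

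The members and lists were chosen with earlier results of these data known. Genes named outside the members are all tested bHLH genes of the list, the 3 tested genes of each other pathway list with the largest difference, the 3 genes most like each Id gene, Thrsp, and those that complete a small count; the markers named were chosen after their values were seen. Alternatives changed the filter (absent, or log2 6), the scaling (quantiles, or a common median), the probe sets read (all, none with the suffixes _s_at or _x_at, or a gene's mean) and the model (a trended and robust prior, weights per array, a replicate block, the 3′ excess of control transcripts as a covariate), and left out each array in turn.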

Additional observations from a re-analysis of the deposited data

How the results depend on the processing

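The count of members past the limma threshold was 0 higher and 0 lower in 16 of 17 alternatives. With all probe sets, each gene read from the one with the smallest p, it was 1 higher (Id2, 2.54). Hardly any gene passed in some fits, so a count of 0 members says little there. By limma 0.019% of all genes passed without GFP positive replicate 1 and 0.0095% without GFP positive replicate 3. That share was 1.01% without GFP positive replicate 2 and also without GFP negative replicate 2. The pathway counts were 1 higher (Nedd4l) and 1 lower (Chrdl1) with all probe sets, 1 higher (Hey1) with trend and robust settings, 2 higher and 5 lower with array weights, and 1 lower (Chrdl1) with the mean of all probe sets; fits without 1 array gave 0 to 2 higher and 0 to 4 lower. In the weighted fit, where GFP positive replicate 2 weighed most (8.35), 9.98% of all genes were higher and 5.73% lower. These shares were 2.34% and 2.04% with trend and robust settings, and 2.63% and 1.9% with the mean of all probe sets. They were 7.61% and 4.21% without GFP negative replicate 3. In the fit of all probe sets 1.3% of probe sets were higher and 1.07% lower. Those percentages count single probe sets, while the gene counts took the smallest p of each gene, so the measures are unlike. The share of all genes read by their smallest p is not given here. The median of the feedback Smads was 0.47 with all probe sets and without cross-hybridising suffixes, since Smad7 was then read from its other probe set. It was 0.16 as reported and 0.0178 to 0.283 as arrays were left out. That median takes in Smad6, which lay flat near background, so it mostly reflects Smad7 at a reduced size. The median of the receptors lay between 0.0775 and 0.3925 as arrays were left out, lowest without GFP negative replicate 3. Bmp4, near background, differed by 0.091 with a common median, which moved the median difference of all genes to 0.07. The sign turned for Bmpr2 with all probe sets (0.11), the 3′ to 5′ covariate (0.037) and without GFP negative replicate 2 (0.0375; lowest −0.164 without GFP negative replicate 3), and for Id1 with that covariate (−0.62) and over the arrays left out (−0.56 to 0.69); the cause was not tested. The limma adjusted p of Id4 ran from 0.0505 to 0.472 and that of Id2 at its brightest probe set was at least 0.0902 in the fits that kept it. Deviations of same-numbered arrays correlated at −0.25, 0.05 and −0.50 across genes, which cannot settle whether the samples were paired. With the replicate block 0 members passed. The share of all genes passing with that block or with the 3′ to 5′ covariate is not given here, so a count of 0 members cannot be weighed there. Id2 1453596_at had a limma adjusted p of 0.0990 with the replicate block. Its limma adjusted p ran from 0.0230 to 0.163 over 14 alternatives, 7 of them past the threshold. Signal near background limits Bmp4, Smad6, Smad7 and the GFP negative values of Id2 1453596_at.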
